A study of Mus musculus with 58 samples.

Results

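The 262 regions described here are BMAL1 peaks of mouse liver that lay above 1 kb and up to 10 kb from an annotated gene start and had no identical interval in the BMAL1 list of NIH3T3 cells. They were chosen from the authors' liver list of 1254 peaks by position alone, using the list's own distance column, and make up 20.9% of it. Of the 991 liver-only peaks, a further 340 lay within 1 kb of a start and 389 beyond 10 kb, and these are the classes used for comparison. To make the liver list, the authors processed older libraries again, collected at zeitgeber time 6, that is, 6 h after lights on. Strain and age of those mice were not among the labels used here. The NIH3T3 list, from a mouse embryonic fibroblast line synchronised for 30 minutes with 100 nM dexamethasone, was named for 20 h. The series has 7 NIH3T3 BMAL1 libraries taken 12 to 38 h after treatment, and which of them entered the list is not stated. For CLOCK it has 6 NIH3T3 libraries (18 to 38 h) and 1 pooled liver sample of C57/BL6 mice aged 12 to 14 weeks, kept in 12 h of light and 12 h of darkness with free access to food. No time of day was given for that sample. The 40 RNA libraries, 2 RNA polymerase II and 2 input libraries among the 58 samples were not used here.

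BMAL1 and CLOCK are basic helix-loop-helix proteins that bind DNA as a pair at E-box sequences such as CACGTG and activate transcription by day in mouse liver. Their best known targets are the Period and Cryptochrome genes, whose products repress the pair. Beyond the oscillator itself, the liver clock is known for its effect on lipid, carbohydrate and amino acid metabolism, and sites outside promoters can act as enhancers. The lists held positions only, with no height, score or value per library, so depth per peak is unknown and no replicate error exists. Every interval and test below covers counting error over peaks, and peaks are not replicates of a condition. Peak coordinates are in build mm9 and counted from 1.

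The peaks themselves were not read as sequence, because no mm9 genome was used here, but promoter and microRNA sequences of their genes were taken from RefSeq (build GRCm38.p6). Shown first are the promoters of 2 genes that carried both a liver-only peak in the 1 to 10 kb class and a liver BMAL1 peak close to the start, since both hold the canonical E-box. Only 3 of the 12 genes with both kinds of peak held CACGTG in a window, so these 2 are not typical. Capitals mark CACGTG, and each window runs from 250 bases before to 50 bases after the RefSeq start.
Ppp1r3c, GRCm38.p6 chr19:36736555-36736854, minus strand: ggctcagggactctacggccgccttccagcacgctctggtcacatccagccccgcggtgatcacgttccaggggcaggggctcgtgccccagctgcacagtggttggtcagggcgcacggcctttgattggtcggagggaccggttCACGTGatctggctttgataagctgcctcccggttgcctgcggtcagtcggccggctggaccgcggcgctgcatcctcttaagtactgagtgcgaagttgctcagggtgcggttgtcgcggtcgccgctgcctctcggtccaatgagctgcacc
Tbcel, GRCm38.p6 chr9:42472189-42472488, minus strand: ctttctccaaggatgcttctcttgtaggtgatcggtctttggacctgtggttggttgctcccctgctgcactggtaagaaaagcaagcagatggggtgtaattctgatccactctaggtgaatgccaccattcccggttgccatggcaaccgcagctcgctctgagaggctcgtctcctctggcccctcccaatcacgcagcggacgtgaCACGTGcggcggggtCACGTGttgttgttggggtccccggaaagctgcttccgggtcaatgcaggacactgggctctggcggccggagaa
Ppp1r3c encodes a protein that targets phosphatase to glycogen. Its E-box began 104 bases upstream of the RefSeq start, and the promoter peak of the liver list lay 132 bp upstream of the start the authors used. Its peak in the 1 to 10 kb class lay 5085 bp downstream, at chr19:36806034-36806083. In Tbcel, a tubulin cofactor E-like gene, a pair of E-boxes began 40 and 25 bases upstream of the RefSeq start. The peak at 24 bp upstream was the same interval in both BMAL1 lists, and the liver-only peak in the class lay at chr9:42272469-42272518, listed as 2949 bp upstream. That distance refers to another start than the 24 bp. The centres of these peaks lay 7879 bp apart, and along this minus-strand gene the liver-only peak was the more downstream. The starts behind all Tbcel distances were up to 46.3 kb apart. Tbcel has 3 windows in the RefSeq table and the 2 others hold no CACGTG. Whether the start used by the authors is the one of the printed window was not determined across builds.

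The class also held 2 peaks annotated to microRNA genes, whose mature products are printed with the seed (bases 2 to 8) in capitals.
mmu-miR-101b-3p: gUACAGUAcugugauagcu
mmu-miR-101b-5p: uCGGUUAUcaugguaccgaugcu
mmu-miR-339-3p: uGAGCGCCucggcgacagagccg
mmu-miR-339-5p: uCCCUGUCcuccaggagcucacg
The peak of Mir101b lay at chr19:29203870-29203919, 5875 bp upstream of the start, and that of Mir339 at chr5:139848220-139848278, 2549 bp upstream. No seed was shared among the 4 products. Neither microRNA gene had another liver peak or an NIH3T3 BMAL1 peak.

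The 262 peaks were annotated to 232 genes, and 15 peaks had no gene. Of the 232 symbols, 216 matched a RefSeq symbol or unique synonym, and none of these lay on another chromosome than its peak. Among the matched genes 194 (89.8%, exact 95% interval 85.0 to 93.5) were protein coding, 15 were long non-coding RNAs, 5 pseudogenes and 2 microRNAs. The share of protein-coding genes was 94.9% of 297 matched genes for peaks within 1 kb and 87.2% of 281 for peaks beyond 10 kb, values given as a description. Most peaks, 255 of 262, were 50 bp wide.

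The sign of the authors' distance follows the direction of the gene. Among pairs of peaks that belonged to 1 gene and were measured from 1 start, the distance rose with the coordinate in all 40 pairs on plus-strand genes and fell in all 45 on minus-strand genes. A negative distance is therefore called upstream and a positive one downstream. By this reading 119 of the 262 peaks (45.4%, 39.3 to 51.7) lay upstream and 143 downstream. Among liver-only peaks beyond 10 kb the upstream share was 177 of 389 (45.5%, 40.5 to 50.6). The odds ratio was 0.997 with an interval of 0.719 to 1.38, and the two-sided Fisher exact test gave p = 1, also after adjustment over 12 tests. Whether a downstream peak lies in an intron, an exon or past the end of its gene was not determined here.

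Distances ran from 1002 to 9906 bp with a median of 4901 and quartiles of 2572 and 7037. The first kilobase of the class, 1 to 2 kb, held the most peaks, 49, of which 31 lay downstream. The next most filled step was 6 to 7 kb with 40 peaks, 23 of them upstream, and the other steps held 20 to 34. In all, 133 peaks lay up to 5 kb away and 129 farther. Since distance defined the class, this is a description. Just inside the lower limit stood Cyp17a1 (1002 bp downstream), Inmt (1057 bp upstream) and Gm12992 (1058 bp upstream). Just outside it stood Efna3 at 994 bp and Wee1 at 983 bp. At the upper limit 2700029M09Rik (9906 bp), a peak without a gene (9874 bp) and Stxbp3a (9847 bp) were inside, and Ergic1 (10007 bp), 2900026A02Rik (10037 bp) and Isyna1 (10172 bp) outside.

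**Figure D1:**
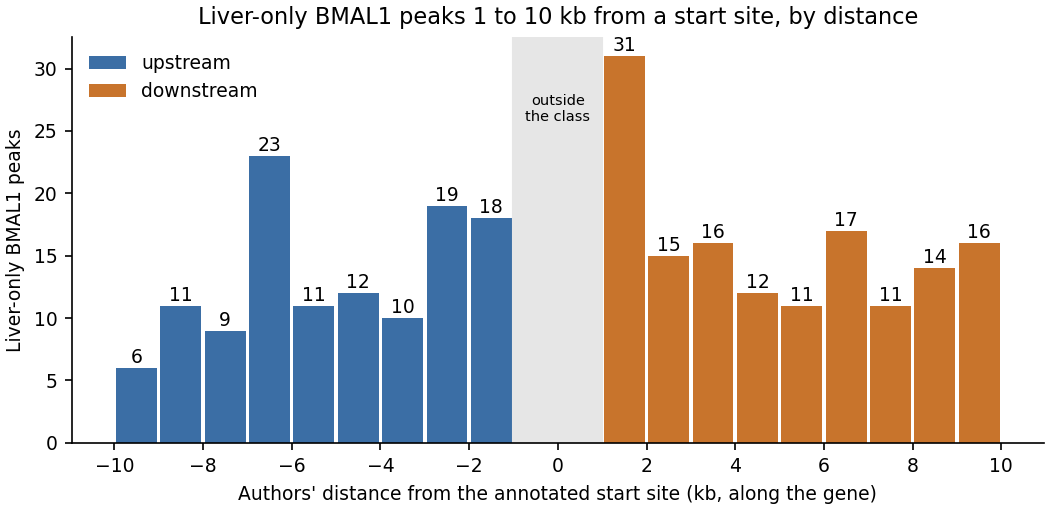
Number of liver-only BMAL1 peaks (vertical axis) in 1 kb steps of the authors' distance (horizontal axis, kb, upstream to the left), with the count above each bar; the grey band is the excluded 1 kb on either side of the start. The tallest bars are 31 peaks at 1 to 2 kb downstream and 23 at 6 to 7 kb upstream.

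Genes of the liver's carbohydrate metabolism were among those with peaks in the class. Of 60 genes in a glucose and insulin list, 17 were in the liver BMAL1 list and 8 of these had a peak in the class. The share, 47.1%, stood beside 23.6% (232 of 985) over all genes of the liver list and 32.8% (43 of 131) over its genes that were in any of the lists used here. The list's 9 peaks lay 3 upstream and 6 downstream with a median distance of 2483 bp, against 4901 bp for all members. No test was made of this or any other gene list, and the counts single out no list.

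The 8 genes included 3 of glycogen metabolism. Gys2, the liver glycogen synthase, had a peak 1787 bp downstream at chr6:142419818-142419867 and a second liver-only peak 21407 bp downstream. Pygl, the liver phosphorylase that releases glucose units from glycogen, had a single peak 2441 bp upstream at chr12:71334892-71334941. With Ppp1r3c, at 5085 bp, these 3 genes had 1 peak each in the class. Only Ppp1r3c among them also had a promoter peak.

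Of the transporter genes of the Slc2a family, 3 had peaks in the class. Slc2a2, which encodes the hepatocyte glucose transporter GLUT2, had its peak 3769 bp downstream at chr3:28624184-28624233. Slc2a5, the fructose transporter GLUT5, was in none of the lists and had one 3836 bp downstream at chr4:149506867-149506916. Slc2a9, a urate transporter, had 2 peaks in the class, at 1930 and 2483 bp, whose centres were 10702 bp apart. Their distances refer to starts 10.1 kb apart. Of these 3 genes only Slc2a5 had a CLOCK peak of the liver list at its site. The remaining genes of the glucose list were Tkt (transketolase of the pentose phosphate pathway, 3184 bp upstream), Pik3r1 (regulatory subunit of PI3 kinase, 2661 bp upstream) and Igfbp4 (a binding protein of insulin-like growth factors, 1079 bp downstream).

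Amino acid and one-carbon genes had a similar count. Of 64 genes listed, 14 were in the liver BMAL1 list and 8 had a peak in the class (57.1%, beside the same 23.6% and 32.8%). Of these peaks 5 lay upstream and 3 downstream, with a median of 6223 bp. Peaks of the other liver-only classes marked 2 genes of this list within 1 kb and 2 beyond 10 kb. Both alanine aminotransferases were present, Gpt at 1272 bp downstream (chr15:76528411-76528460) and Gpt2 at 3743 bp upstream (chr8:88012708-88012757). Ahcy, which hydrolyses S-adenosylhomocysteine, had a peak 6735 bp upstream. Aldh1l1, a folate dehydrogenase, had one 6214 bp upstream, and Aldh4a1, of proline breakdown, one 9228 bp downstream.

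Transporters of amino acids completed that list with 3 genes. Slc38a3, a glutamine transporter, had a peak 3098 bp upstream, Slc7a2, a transporter of cationic amino acids, 6232 bp upstream, and Slc1a2, a glutamate transporter, 9667 bp downstream. Each of the 8 genes had exactly 1 liver BMAL1 peak. The Slc38a3 peak lay 4243 bp from the nearer of 2 peaks annotated to Gnat1, which encodes a transducin of rod cells. The authors' column thus assigned neighbouring sites of 1 stretch of chromosome 9 to different genes.

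In the lipid and bile acid list, 5 of 19 liver BMAL1 genes had a peak in the class. The share, 26.3%, lay near the 23.6% over all liver list genes and below the 32.8% over all listed genes. The 6 peaks had a median distance of 5132 bp. Ppara, the nuclear receptor that drives fatty acid oxidation, had 2 of them, 2961 bp upstream at chr15:85562428-85562477 and 3156 bp downstream at chr15:85605776-85605825. A liver-only peak 813 bp upstream lay between them, and the starts behind these distances were 37.2 kb apart. Acsl1, an acyl-CoA synthetase, had a peak 7108 bp downstream and 2 farther ones upstream, at 56081 and 85966 bp. The starts behind the Acsl1 distances were up to 21.8 kb apart. Single peaks marked Apoa5 (an apolipoprotein of triglyceride control, 7360 bp upstream), Fads2 (a fatty acid desaturase, 3003 bp upstream) and Etnk2 (an ethanolamine kinase, 8755 bp downstream).

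Detoxification genes with a peak in the class numbered 3 of 9 in the liver list (33.3%), near the 32.8% over all listed genes. Among them Por, the electron donor of microsomal cytochromes P450, had 1 such peak, chr5:136183881-136183930, listed as 7970 bp upstream, and 2 within 1 kb of starts. The starts of the 3 Por peaks were up to 41.4 kb apart.

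**Figure D2:**
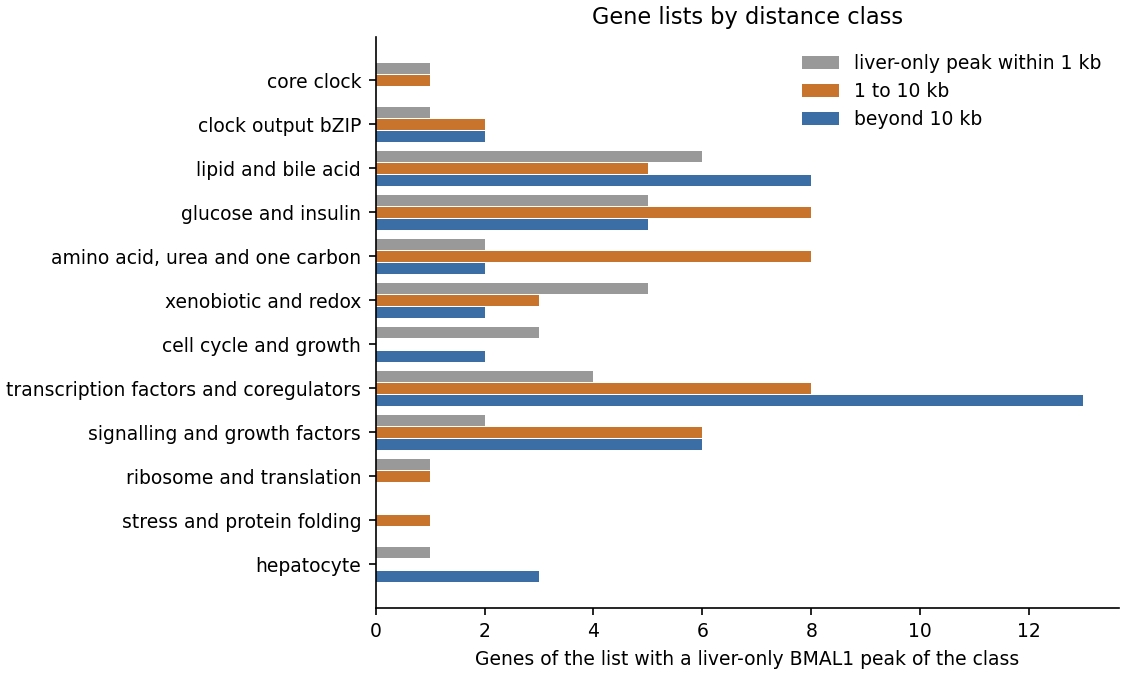
Number of genes of each list (horizontal axis) with a liver-only BMAL1 peak within 1 kb (grey), 1 to 10 kb (orange) or beyond 10 kb (blue) of a start. The class 1 to 10 kb has 8 glucose genes, 8 amino acid genes and 8 transcription factor genes, and no gene of the cell cycle or hepatocyte lists.

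Usp2, a deubiquitinase, was the single gene of the core clock list with a peak in the class, at 1126 bp downstream (chr9:43894105-43894154). That list had 12 genes with a liver BMAL1 peak, so the share was 8.33% beside 23.6% over all liver list genes. The other liver-only classes held 1 of its genes within 1 kb and 0 beyond 10 kb, and intervals shared with NIH3T3 cells had been removed by the rule. The D-box factor genes Hlf and Nfil3 had 1 peak each, 9142 bp downstream (chr11:90234083-90234132) and 6205 bp downstream (chr13:53070213-53070262). Hlf and its relatives activate and Nfil3 represses at D-box sequences, an output arm of the clock. Nfil3 also had a liver-only peak 87011 bp upstream. Hlf had 3 more liver peaks, of which the one 27255 bp upstream was identical in NIH3T3 cells and had a liver CLOCK centre 29.5 bp away. The starts behind the Hlf distances were up to 8.98 kb apart. The nearest liver CLOCK centre to the Hlf peak in the class was 45409 bp away.

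Transcription factors and coregulators contributed 8 of 27 liver BMAL1 genes (29.6%), a share between the 23.6% over all liver list genes and the 32.8% over all listed genes. Of the 8 peaks 2 lay upstream and 6 downstream, with a median of 2455 bp. Near their starts stood Klf15 (a Krüppel-like factor of amino acid and glucose metabolism, 1159 bp), Nfic (1603 bp) and Foxp1 (a forkhead factor, 1825 bp), all downstream. Irf2bp2 had a peak 3084 bp downstream and 3 others 20816, 110452 and 142540 bp upstream of the same start. Klf13 had one 6975 bp downstream at chr7:71062757-71062806 and another at 13240 bp. Rara, a retinoic acid receptor, and Zfp36, an RNA-binding protein placed in this list, had peaks 6370 and 4019 bp upstream.

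The signalling and growth factor list added 6 of 14 genes (42.9%, beside 23.6% over all liver list genes and 32.8% over all listed genes) with a median of 6167 bp. Klb, the coreceptor of FGF21 and FGF19 type hormones, had a peak 2273 bp downstream at chr5:65741874-65741923, and the growth factor receptor gene Fgfr3 had one at 6115 bp. Sgk1, a kinase induced by glucocorticoids, had a peak 5226 bp downstream, and Lifr, a cytokine receptor, one at 6218 bp. Il1r1, the interleukin-1 receptor, had a peak 7373 bp upstream and a promoter peak at 144 bp, and Efna1, an ephrin, one 7487 bp upstream. Polr1b (an RNA polymerase I subunit, 6350 bp upstream) and Trib1 (a pseudokinase, 4283 bp downstream) were the single genes of the ribosome list, of 5 in the liver list, and of the stress list, of 1. No gene of the cell cycle list (of 8 in the liver list) or of the hepatocyte markers (of 4) had a peak in the class. None of 12 markers of other liver cells was in the liver list. That list names 985 genes, beside 27025 genes in the RefSeq promoter table, so nothing is read from the absence of so few markers.

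Most genes of the class had no other BMAL1 peak in liver. A single liver peak was listed for 191 of 232 genes, and 203 genes (87.5%) had peaks of this class only. Few peaks per gene were usual in the whole liver list, whose 1254 peaks, 50 of them without a gene, fell on 985 genes. The 340 liver-only peaks within 1 kb fell on 309 genes. Single-peak genes outside the class were not counted, so these shares are not read as a trait of the class. The other 29 comprised 12 genes with a peak within 1 kb and 19 with a peak beyond 10 kb, 2 genes having both. Counted over peaks, 14 of 262 (5.34%, 2.95 to 8.80) belonged to a gene with a promoter peak, against 15 of 389 (3.86%, 2.17 to 6.28) beyond 10 kb. The odds ratio was 1.41 (0.617 to 3.19; two-sided Fisher exact p = 0.439, adjusted 0.659). The difference was within counting error, and the interval includes both lower and more than 3-fold higher odds.

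Among the 232 genes, 11 had 3 or more liver peaks. Besides Acsl1, Hlf, Irf2bp2, Por, Ppara and Tbcel these were Dnase2b (a DNase II family nuclease), Fhad1, Gm16079, Mtss1 and Pim3. Pim3, a survival kinase, had peaks at 8584 and 13301 bp downstream and 11580 bp upstream. Mtss1 had 1 peak 3390 bp upstream and a group of 3 at 40723 to 41166 bp downstream. For 29 member genes with at least 2 liver peaks and a known strand, the start behind each distance could be worked out. In 16 of them all peaks were measured from 1 start (within 60 bp). In 13, Ppara and Por among them, the starts differed, by up to 73.8 kb in Pik3r1, so the distance class holds for the start the authors used and not for every start of the gene.

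**Figure D3:**
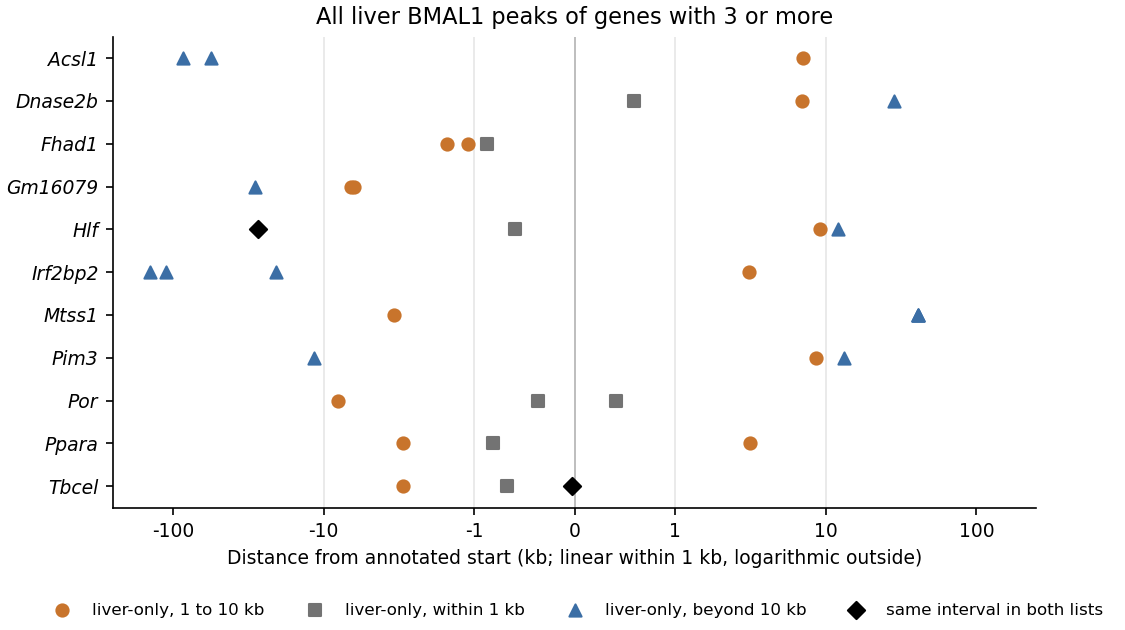
Every liver BMAL1 peak of the 11 genes with 3 or more, placed by distance from the annotated start (horizontal axis, kb, linear within 1 kb and logarithmic outside); orange circles are the peaks of the 1 to 10 kb class. Acsl1 and Irf2bp2 combine 1 such peak with 2 and 3 distant upstream peaks, and the 3 Mtss1 peaks near 41 kb overlap in 1 symbol. In some genes, such as Por, Ppara and Tbcel, the distances refer to different starts, up to 46.3 kb apart in Tbcel. For those genes the plotted spacing and order are not those on the chromosome.

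Peaks of the class occurred in close pairs at 12 places. Among these were AU019990, Dctpp1, Ttc39c, Cyp17a1, Gm16079, Tha1, Gnat1, Fhad1, Gm14165 and 1 place without a gene. Centres within a pair lay 62 to 822 bp apart with a median of 250 bp, and 6 of the 12 gaps were 200 to 300 bp. Cyp17a1, a steroid hydroxylase, had peaks 1002 and 1222 bp downstream, 220 bp apart, at chr19:46742977-46743026 and chr19:46742757-46742806. The pair of Tha1, a threonine aldolase, was 383 bp apart. Clmn, Ralgapa2, Ppara and Slc2a9 also had 2 peaks in the class, but farther apart.

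Neighbours at this range were less frequent than at promoters. Another liver BMAL1 centre lay within 1 kb of 24 of 262 peaks (9.16%, 5.96 to 13.3), against 68 of 340 (20.0%, 15.9 to 24.7) for liver-only peaks within 1 kb of a start. The odds ratio was 0.404 (0.235 to 0.676), with p = 2.35e-04 by the two-sided Fisher exact test and 0.00282 after adjustment. Any liver peak counted as a neighbour, also the 263 intervals identical in NIH3T3 cells, whose median distance from a start was 171 bp. A neighbour of the same class was present for all 24 peaks of the class and 57 of the 68 at promoters. Peaks within 1 kb of 1 start also lie close together by definition. How far either limit accounts for the difference was not tested. Peaks beyond 10 kb had neighbours in 27 of 389 cases (6.94%, 4.62 to 9.94), which did not differ from the class beyond counting error (odds ratio 1.35, 0.727 to 2.50; two-sided Fisher exact adjusted p = 0.659). With peaks of 1 class joined into loci, a locus counted if any of its peaks had a neighbour, joined partners included. This held for 12 of 250 loci in the class (4.80%) and 39 of 311 at promoters (12.5%; two-sided Fisher exact adjusted p = 0.0204). Loci of 2 or more joined peaks made up all 12 in the class and 28 of the 39 at promoters, so this is no separate check. In peaks at 1 to 5 kb alone, 14 of 133 had a neighbour (10.5%) and the two-sided Fisher exact adjusted p against promoters was 0.178.

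CLOCK, the partner of BMAL1, was sought at these sites in the authors' CLOCK lists. A liver CLOCK centre lay within 500 bp of 5 of the 262 peaks (1.91%, 0.622 to 4.40). The share over the whole liver list, with the identical intervals that the rule removed, was not counted. The 1.91% is therefore set only beside the other liver-only classes. The genes were Zfp91, Slc2a5, Gm15653, Klf13 and 2700029M09Rik, the last being an older name of Hpf1, a cofactor of PARP enzymes in DNA damage. The distances between centres were 4 bp at Zfp91, 4 at Slc2a5, 9 at Gm15653, 66 at Klf13 and 74 at 2700029M09Rik. The next nearest peak of the class was 10318 bp from any liver CLOCK centre, so any limit from 74 bp to 10 kb gives the same 5 sites. The Zfp91 site was chr19:12869311-12869386, 1268 bp downstream. Gm15653, a pseudogene, had its site at chr5:73865834-73865883, 2734 bp downstream, and 2700029M09Rik at chr8:63379167-63379218, 9906 bp downstream. All 5 sites lay downstream of the start, as did 143 of all 262 peaks of the class, and no test was made of this.

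An NIH3T3 CLOCK centre lay within 500 bp of 1 peak of the class (0.382%, 0.00966 to 2.11), that of Gm14236, 60.5 bp away. This site, chr2:167829156-167829238, lay 6833 bp upstream and was not among those with liver CLOCK. The share with liver CLOCK was 1 of 340 within 1 kb (0.294%, 0.00745 to 1.63) and 9 of 389 beyond 10 kb (2.31%, 1.06 to 4.35). Against promoters the odds ratio was 6.58 (0.730 to 313; two-sided Fisher exact p = 0.0906, adjusted 0.362), and against distant peaks 0.822 (0.214 to 2.77; two-sided Fisher exact adjusted p = 0.948). For NIH3T3 CLOCK, 4 peaks of each other class were marked (1.18% and 1.03%; two-sided Fisher exact adjusted p = 0.659 and 0.871). At these counts no difference in CLOCK between the classes was detectable. The liver CLOCK list held 439 peaks from a sample without a stated time, so a missing CLOCK peak was not read as absence of CLOCK.

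**Figure D4:**
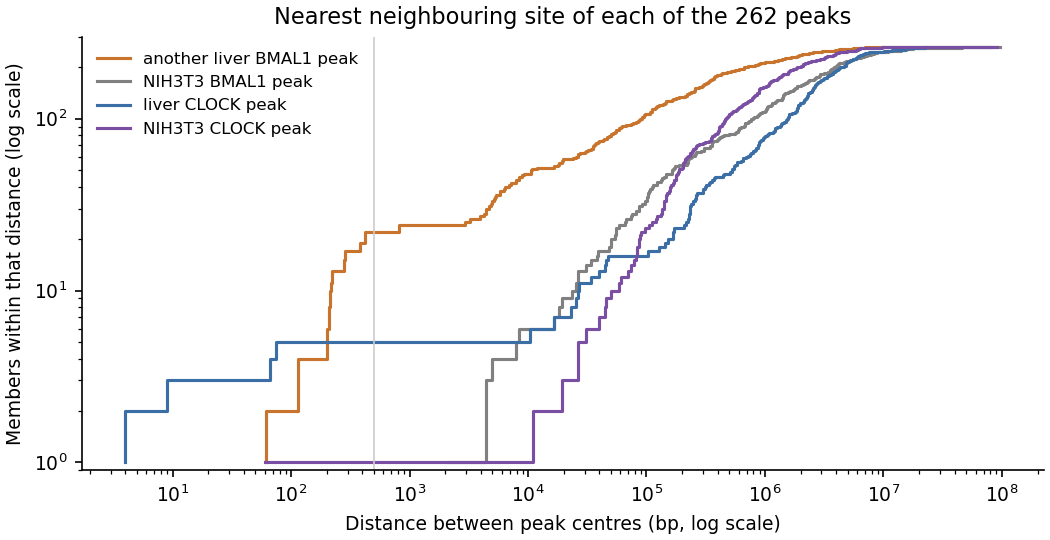
For each type of neighbouring site, the number of the 262 peaks (vertical axis, logarithmic) whose nearest such site lies within the distance on the horizontal axis (bp between centres, logarithmic); the grey line marks 500 bp. The liver CLOCK curve reaches 5 peaks by 74 bp and stays there until 10318 bp.

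The NIH3T3 BMAL1 list had no peak at these sites, although 4 of them had one of its centres within 5 kb and 6 within 10 kb. None of the 262 peaks had an NIH3T3 BMAL1 centre within 500 bp, which allows a share of up to 1.15% by the limit of 3 counts (the exact 95% interval reaches 1.40%), and the nearest lay 2109 bp away, at Gm13834. Of the 340 promoter peaks, 10 (2.94%, 1.42 to 5.34) had such a centre although the interval was not identical. With centres within 200 bp 3 promoter peaks were marked, and with intervals overlapping by at least 1 bp no peak of either class. None of the 389 distant peaks had an NIH3T3 BMAL1 centre within 500 bp. The rule had used the same NIH3T3 list to remove the 263 identical liver intervals, so these counts are a description of the intervals left and nothing is read from their difference.

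At the level of genes 10 of the 232 were also annotated to an NIH3T3 BMAL1 peak, namely Cubn, Gm12034, Gm13834, Hlf, Katnal1, Lekr1, Lima1, Tbcel, Trib1 and Trim56. In Hlf, Katnal1, Lima1 and Tbcel the liver list repeated an NIH3T3 interval elsewhere in the gene. Katnal1, a katanin-like subunit, shared the peak 77 bp upstream of a start and had its liver-only peak at chr5:149790226-149790275, listed as 2419 bp downstream. Lima1, an actin-binding protein, shared a peak listed as 20057 bp upstream and had a liver-only peak listed as 9726 bp downstream. The starts behind these distances were 14.1 kb apart in Katnal1 and 55.3 kb in Lima1. The Lima1 centres lay 25491 bp apart, and along this minus-strand gene the shared peak was the more downstream. At Trib1 the liver peak lay 4283 bp and the NIH3T3 peak 79831 bp downstream, with none shared. At Lekr1 the liver peak lay 2843 bp and the NIH3T3 peak 7266 bp upstream, with centres 4423 bp apart. Over peaks, 10 of 262 (3.82%, 1.85 to 6.91) belonged to such a gene, against 19 of 340 within 1 kb (5.59%) and 8 of 389 beyond 10 kb (2.06%). These shares too rest on the NIH3T3 list that the rule used and are a description.

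**Figure D5:**
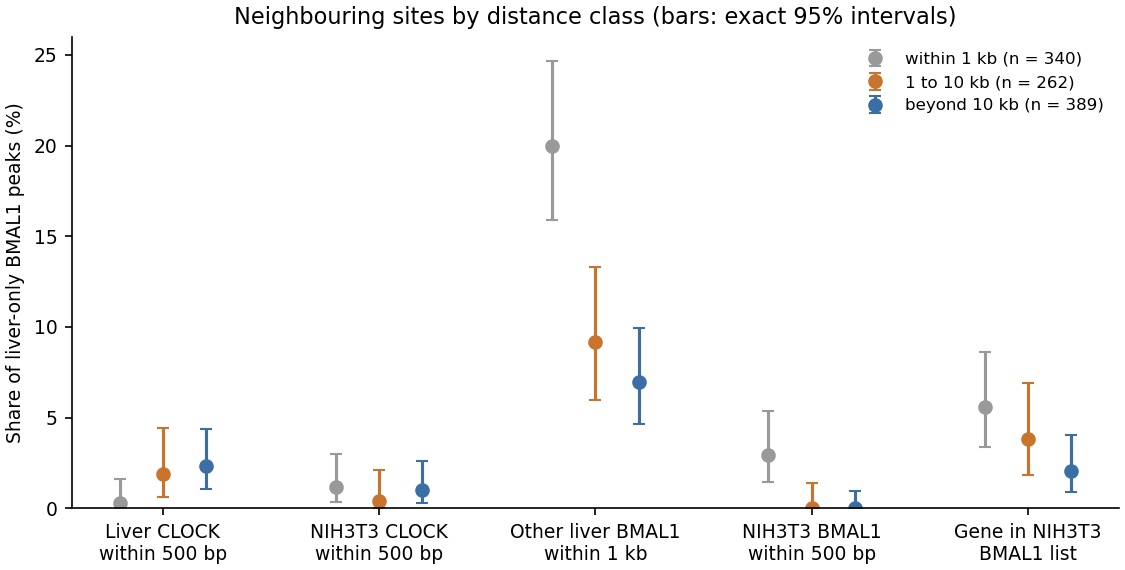
Share of liver-only BMAL1 peaks (vertical axis, percent) with each kind of neighbour, for peaks within 1 kb (grey, n = 340), at 1 to 10 kb (orange, n = 262) and beyond 10 kb (blue, n = 389); bars are exact 95% intervals over peaks. The largest gap is for another liver BMAL1 peak within 1 kb, with 20.0% at promoters, 9.16% in the class and 6.94% beyond.

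The E-box was in the promoter windows of few genes of the class. CACGTG, which reads the same on both strands, was searched in RefSeq windows of 300 bases, and a gene counted if any of its windows held it. It was found for 21 of 179 genes of the class with a window (11.7%, 7.41 to 17.4) and for 8.09% of all 27025 genes in the table (7.15% of 32851 windows). For genes of the class without a liver peak within 1 kb the count was 18 of 167 (10.8%, 6.51 to 16.5). With such a peak it was 3 of 12 (25%, 5.49 to 57.2), the genes being Inf2, Ppp1r3c and Tbcel. Over all 363 liver BMAL1 genes with a promoter peak and a window it was 151 (41.6%, 36.5 to 46.9). Both groups with a promoter peak also count intervals identical in NIH3T3 cells, which the rule removed from the class. No test was made of these shares. Apoa5, Klf15, Rara and Sgk1 were among the 18 genes with the motif in a promoter window and no liver peak within 1 kb. A match describes letters in a window and not binding.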

How the data were processed

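Positions of BMAL1 and CLOCK binding in NIH3T3 cells and mouse liver were taken from the authors' 4 deposited peak lists (1254 liver BMAL1, 463 NIH3T3 BMAL1, 439 liver CLOCK and 1016 NIH3T3 CLOCK peaks). Per the submitters' processing notes, Bowtie, SAMtools, bedtools and build mm9 were used, with no role stated for each tool. For the peak caller and its thresholds no source used here gives a name. The deposited BMAL1 lists also give a gene and a signed distance in bp. Depth and enrichment per peak are unknown.

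Members were rows of the liver BMAL1 list with no identical interval in the NIH3T3 list and an absolute distance above 1000 and up to 10000 bp. The members, the gene lists and the named genes were chosen with earlier results of these data known. Named were genes of those lists, genes with 2 or more member peaks or 3 or more liver peaks, genes with CLOCK or NIH3T3 BMAL1 at the site, and peaks next to the limits. Sites were matched by centres within 500 bp. Comparisons between classes used the two-sided Fisher exact test, conditional odds ratios and exact 95% intervals (Clopper-Pearson for shares), with Benjamini-Hochberg adjustment over 12 tests and a threshold of 0.05. Of the 12, 4 use the NIH3T3 BMAL1 list that also chose the members, and their shares are given without a p-value. A share of 0 is given with the limit that 3 counts allow. Site matching and tests were checked on made-up peaks. Sequences came from RefSeq tables (GRCm38.p6), which were also used for names and strand. Alternatives were other distance windows, site limits, promoter windows, joined loci, peaks without clock genes and a centre-based definition of liver-only; peaks with a gene only were added after seeing the data. A few genes that the rule would name are not reported here. Tests ran in SciPy 1.17.1 under Python 3.11.15, tables in pandas 2.3.3 and plots in matplotlib 3.10.9.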

Additional observations from a re-analysis of the deposited data

How the results depend on the processing

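Of 94 alternative values of the 12 comparisons between distance classes, 89 stayed on the same side of the threshold and 5 no longer passed it. As reported, only 2 of the 12 had passed, those of another liver BMAL1 peak and of an NIH3T3 BMAL1 peak, each against promoters. The second used the NIH3T3 list that also chose the members, so its passing is not counted as a result. All 5 values that failed concern these 2 comparisons, and most of the 89 belong to comparisons that passed in neither setting. No difference that had passed changed its sign. At 1 to 5 kb the difference from promoters was -9.47 percentage points for another liver BMAL1 peak within 1 kb, and -2.94 for an NIH3T3 BMAL1 peak within 500 bp. The latter, a description since the rule used the same list, was also -2.94 at 2 to 10 kb, -0.882 with centres within 200 bp and 0 with intervals overlapping by 1 bp, where no promoter peak was marked. Smaller windows leave fewer peaks to test. The class held 133 peaks up to 5 kb and 403 up to 20 kb. With CACGTT and AACGTG added to the motif, the share was 17.3% of the class's genes and 13.0% of all genes. It was 47.7% of liver genes with a promoter peak, intervals shared with NIH3T3 cells included. No paired analysis was possible because the peak lists hold no values per sample, and no library could be left out. The lists carry neither depth nor peak height, so how a stricter threshold would change the class was not tested.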

Other observations

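Other genes of the class, named here after their values were seen, include further parts of liver metabolism. Of the 985 genes in the whole liver list, 30 were solute carriers. In the class they numbered 11 of 232 genes (4.74%). The other liver-only classes had 11 of 309 genes within 1 kb (3.56%) and 5 of 318 beyond 10 kb (1.57%). This group was picked by its symbol and no test was made. Besides those described, the solute carriers of the class included Slc13a2 (a citrate and dicarboxylate transporter, 5617 bp upstream), Slc15a4 (1598 bp upstream), Slc22a4 (3584 bp downstream) and Slc41a2 (2454 bp downstream). The 3 cytochrome P450 genes of the liver BMAL1 list, Cyp17a1, Cyp2c44 (4161 bp downstream) and Cyp2u1 (9422 bp upstream), all had peaks in the class, beside 232 of 985 (23.6%) over all genes of that list; the group was picked by its symbol and was not tested. Thrsp, a lipogenic thyroid hormone response gene, had a peak 6255 bp upstream at chr7:104572471-104572520. Acaa1a, a peroxisomal thiolase, had one 1535 bp downstream, and Phyh, which starts peroxisomal breakdown of phytanic acid, one 3579 bp downstream. Car5a, a mitochondrial carbonic anhydrase, had a peak 1530 bp downstream, Cp, which encodes ceruloplasmin, one 2926 bp upstream, and Nrg4, a neuregulin, one 5818 bp downstream.

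Of the 262 peaks, 7 had a width other than 50 bp. Of the 6 peaks with a CLOCK centre within 500 bp, 3 were among those 7, at Zfp91, Gm14236 and 2700029M09Rik, and the 3 at Slc2a5, Gm15653 and Klf13 were 50 bp wide. Widths other than 50 bp occurred in 52 of 340 liver-only promoter peaks, 4 of 389 beyond 10 kb and 141 of 263 intervals identical in both BMAL1 lists. The labels do not say how the authors set peak widths, and their part in these counts was not tested.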
